A study of Mus musculus with 8 samples.

Results

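The response of mouse embryonic stem (ES) cells that keep the repressor ERF to the loss of RAS was taken from 4 of the 8 one-colour arrays of the series. The members were chosen by their titles, as the ERF wild type samples given 4-hydroxytamoxifen (OHT) and the ERF wild type samples left untreated, with 2 arrays in each group. All of these cells were H-Ras-/-;N-Ras-/-, carried loxP-flanked copies of the remaining RAS gene, and were RERTert/ert, an allele that supplies a Cre recombinase active only in the presence of OHT. The OHT group received OHT for at least 2 days, and per the treatment notes the aim was to catch early changes of transcription. Both groups grew on gelatin in serum and LIF, and each sample was a mix of 2 clones. Replicate 1 of both groups came from pool A1 and replicate 2 from pool B1, so each array given OHT has an untreated partner from the same pool. The other 4 arrays carry the same alleles and are labelled ERF knockout, without and with OHT. No sample that kept RAS was given OHT, so an effect of the compound or of Cre itself and an effect of RAS loss cannot be told apart.

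RAS proteins are membrane-bound switches that pass signals from receptors for growth factors such as FGF4 to the kinases RAF, MEK and ERK. Active ERK phosphorylates ETS family factors in the nucleus. It switches on activators and keeps ERF, a repressor that binds the same DNA element, in the cytoplasm. In mouse ES cells ERK activity drives the exit from naive pluripotency towards the formative epiblast, and its block together with LIF favours self-renewal.

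On each of the 8 arrays 54.0 to 63.6% of the spots cleared the scanner's background test, and 0 were saturated. All 8 defining ES cell markers were above background on all 4 wild type arrays. The same held for 7 of 8 fibroblast markers (Lum at 0 arrays), 5 of 5 of primitive endoderm, 4 of 6 of trophoblast (Elf5 and Tpbpa at 0), 3 of 4 of neural cells (Neurog2 at 0), 2 of 4 of blood and endothelium (Cdh5 at 0) and 1 of 4 of mesoderm (T and Mixl1 at 0). The log2 of the summed signal of the fibroblast markers was 4.37 and 5.22 after OHT, against 4.26 and 5.07 in untreated cells, so it moved with the pool more than with OHT. In bulk RNA, fewer cells of a type and less RNA per cell cannot be told apart. Hras, with 2.71 and 2.67 after OHT against 3.01 and 2.92 untreated, and Nras, with 0.81 and 1.68 against 0.67 and 1.37, did not pass the test (limma adjusted p 0.0612 and 0.170). Erf read 4.80 and 4.74 after OHT and 4.92 and 5.22 in untreated cells (adjusted p 0.483). The position of these probes relative to the deletions is unknown here, and so they do not check the labels. These levels, like all levels given here, are log2 signals relative to the 75th percentile of their array, with pool A1 before pool B1.

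Small areas of low signal touched the wild type arrays: 3 areas with 1.21% of the spots on untreated replicate 1 and 1 area with 0.465% on OHT replicate 2. They are too small for the planned mask, a running median over 21 by 21 spots, which took out no spot on these 4 arrays. Of the 14670 genes tested, 258 had a spot in such an area, and 18 of those were called. Of 62 genes with a change above 3 in pool A1, at the right of the plot of the pools' changes, 57 had a spot in such an area. Rasa3, a RAS GTPase activating protein gene singled out after its values were seen, read 1.80 and 2.58 after OHT against -6.91 and 2.62 in untreated cells. Of the named genes that were called, Ephb4 and Ddx58 had a spot in one of these areas. The labelled knockout arrays, which share in each gene's spread, had such areas too. They held 4.95% of the spots on OHT replicate 1, 2.02% on OHT replicate 2, 0.528% on untreated replicate 2 and 0 on untreated replicate 1. On the 2 OHT arrays of the labelled knockout the planned mask took out 0.629% and 0.115% of the spots.

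RAS loss was followed by changes in 1825 of 14670 genes (12.4%) at an adjusted p of 0.05, of which 858 (5.85%) rose and 967 (6.59%) fell. At least 2-fold rises were called for 195 genes and at least 2-fold falls for 199, and at least 4-fold rises for 24 and falls for 39. Both pools moved the same way for 75.2% of the 14644 genes with a value on all 4 arrays, and the changes of the pools had a Pearson correlation of 0.559 and a Spearman correlation of 0.654 over these genes, which are no independent replicates. The 2 OHT values and the 2 untreated values of a called gene did not overlap in 1538 cases, against 5816 (39.6%) among all genes tested, and in the other 287 they overlapped although both pools moved the same way. The model is limma with pool as a block and all 8 arrays sharing the spread, with a prior variance that follows the signal level and is robust to outlying genes. The calls depend on that model: with a constant prior variance that was not robust either, limma called 0 genes (3781 at an unadjusted p under 0.05). These 2 features of the prior were dropped together, so their parts cannot be told apart. Without the replicate block limma called 5 genes (912). Without pool A1 the count was 27 or 28, and without pool B1 it was 157 or 259, depending on which array of the pair was left out.

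**Figure D1:**
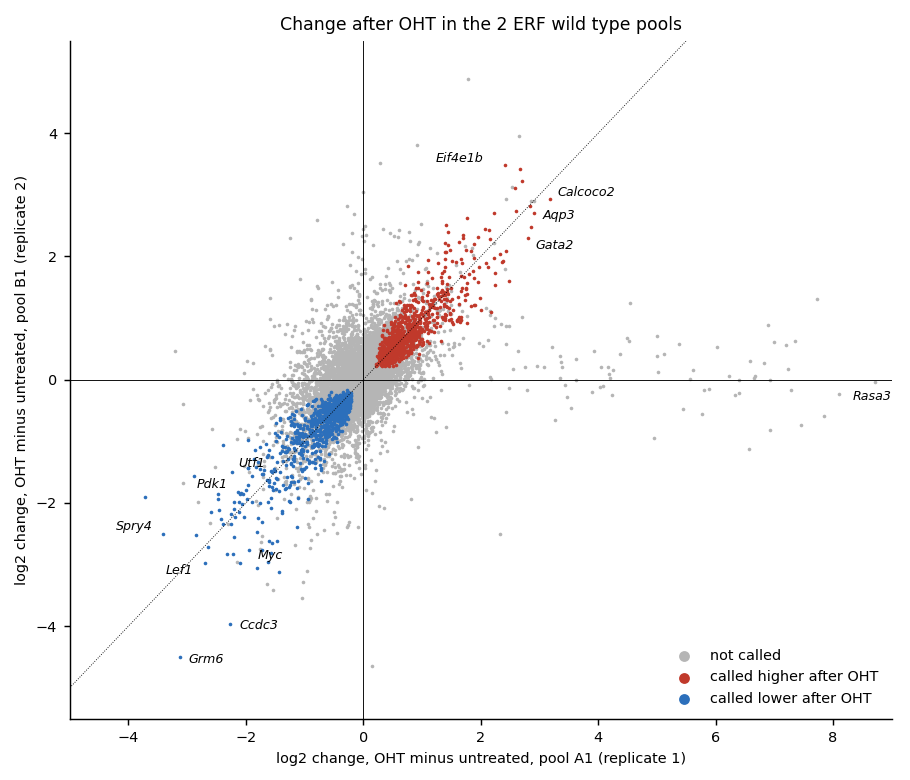
Each point is 1 of the genes tested, with its log2 change after OHT in pool A1 (horizontal) and pool B1 (vertical); red and blue mark genes called higher and lower, grey those not called, and the dotted line marks equal change. Called genes lie along the dotted line, and grey points far to the right, such as Rasa3, changed by up to 8.71 in pool A1 and by little in pool B1.

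The 5 genes called without the block were 4 that fell and 1 that rose. Dusp6 encodes a phosphatase that inactivates ERK in the cytoplasm. It read 2.44 and 2.41 after OHT, against 4.69 and 4.76 in untreated cells, a change of -2.30 ± 0.07 (SE, 2 pools; adjusted p 6.37e-04). Lef1, which encodes a DNA-binding partner of beta-catenin, read 1.07 and 0.89 after OHT and 3.77 and 3.87 untreated, a change of -2.83 ± 0.15. In both genes the pools agreed closely within each group and the groups lay far apart, as a call without the block requires. Pde2a, a phosphodiesterase gene for cyclic nucleotides, read 0.85 and 1.04 after OHT and 3.03 and 3.27 untreated. Slc7a7, an amino acid transporter gene, read 4.37 and 4.15 after OHT and 6.0 and 6.13 untreated. Pde2a and Slc7a7 are named because of this count, after their values were seen. Lrrc15, a leucine-rich repeat membrane protein gene, was the one that rose, with 1.27 and 1.10 after OHT and -1.58 and -1.38 untreated.

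Of 10 measured Sprouty, Spred and dual-specificity phosphatase genes, which restrain receptor and ERK signalling, 5 fell, 1 rose and 4 did not pass, with a median log2 change of -1.21 against -0.03 over all genes. Spry4, an inhibitor of receptor tyrosine kinase signalling, read -3.23 and -3.78 after OHT, against 0.19 and -1.28 in untreated cells (change -2.96 ± 0.24, adjusted p 0.00337). Its level in untreated cells differed between the pools, yet both OHT values lay below both. Normexp background correction, which raises dim signals, gave -1.97 for Spry4. Spry2, of the same family, read -0.63 and -0.86 after OHT and 0.94 and 1.06 untreated (-1.75 ± 0.12). Dusp4, a nuclear ERK phosphatase gene, read -0.44 and 0.02 after OHT and 1.76 and 2.58 untreated (-2.38 ± 0.12). The member that rose was Dusp14, with a change of 0.44 ± 0.09, a call lost with normexp. Of 14 measured RAF, MEK, ERK and RSK kinase genes 1 fell and 0 rose (limma), a share of 7.14% against 12.4% called over all genes. Among those that did not pass, Mapk3, which encodes an ERK kinase, changed by 0.04. Map2k1 and Map2k2, which encode MEK, changed by 0.17 and 0.02 and did not pass either.

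Of the 3 ETS activators of the PEA3 group 2 fell. Etv4 read 2.28 and 3.89 after OHT, against 4.47 and 5.86 in untreated cells (-2.09 ± 0.12, adjusted p 0.00194), and Etv1 read 1.88 and 1.64 after OHT and 3.40 and 3.31 untreated (-1.60 ± 0.08). The pools held Etv4 at levels that differed by more than 1 log2 unit, and the fall was of like size in both. Etv5, the third member, changed by -0.33 and did not pass. Among 14 other ETS genes 3 rose and 0 fell (limma): Elf3, a factor of epithelia, which read 0.88 and 0.58 after OHT and -0.83 and -1.08 untreated (1.69 ± 0.12), Ets2 (0.65 ± 0.09), which acts in trophoblast, and Elf1 (0.66 ± 0.15). The call for Elf1 was lost without the filter on dim probes and with dark areas kept.

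Immediate early genes, which growth factors switch on without new protein synthesis, went both ways. Of 19 measured, 2 fell and 3 rose (26.3% called, against 12.4% over all genes), with a median of -0.12. Egr1, a zinc finger factor and direct ERK target, read -1.53 and -1.50 after OHT, against 1.06 and 0.66 in untreated cells (-2.37 ± 0.20, adjusted p 0.00493), and Maff, a small bZIP factor gene, changed by -0.58. On the other side Jund, a JUN family member of AP-1, read 5.43 and 6.20 after OHT and 4.86 and 5.51 untreated (0.63 ± 0.07), so the rise within each pool was of the size of the gap between pools, and the groups overlapped. Klf6 changed by 0.66 ± 0.09 and Jun by 0.62 ± 0.10. Fos, with a change of -0.12, did not pass.

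Myc, a growth regulator and ERK target in many cell types, read 0.32 and 0.21 after OHT, against 2.27 and 2.97 in untreated cells (-2.36 ± 0.27, adjusted p 0.0229). Mycn, the form abundant in ES cells, read 5.19 and 4.50 after OHT and 5.66 and 5.44 untreated (-0.70 ± 0.12). Both fell in each pool, and none of the other 9 measured genes of the family and its partners passed. Of 29 measured genes of ribosome biogenesis 10 fell (34.5%) and 19 did not pass, with a median of -0.29. With normexp 3 fell, with a median of -0.19, and with quantile scaling 6 (-0.23). Examples were Wdr43, a factor of the small subunit's assembly (-0.39 ± 0.07), the nucleolar GTPase gene Gnl3 (-0.41 ± 0.07) and the snoRNP core gene Nop56 (-0.31 ± 0.05). Changes of all 29 lay between -0.16 and -0.45, and the calls for Wdr43, Nip7, Nop56 and Gnl3 were lost with normexp.

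In RAS signalling itself 2 of 14 measured RAS family GTPase genes passed (14.3%), against 12.4% over all genes. Ralb, which encodes a GTPase that acts through the exocyst, rose, with 3.48 and 3.65 after OHT and 2.52 and 2.73 untreated (0.94 ± 0.10). Eras, a RAS-like gene of ES cells, fell, with 0.77 and 0.97 after OHT and 1.35 and 1.77 untreated (-0.69 ± 0.10). Of 17 adaptor, exchange factor and GTPase activating protein genes, only Shc1 passed (5.88%), at -0.33 ± 0.08, and its call was lost with normexp, quantile scaling, no filter and dark areas kept. Rasgef1a, an exchange factor gene outside that list, was among the 15 largest rises, with 1.53 and 1.23 after OHT and -0.64 and -1.06 untreated (2.23 ± 0.11). Among 16 FGF ligand and receptor genes 3 rose and 2 fell (31% called, against 12.4% over all genes). The receptor gene Fgfr1 read 4.86 and 4.60 after OHT and 4.04 and 3.86 untreated (0.77 ± 0.06), and Fgf4, the main FGF of ES cells, read 6.10 and 6.43 after OHT and 5.36 and 5.46 untreated (0.85 ± 0.14). Fgfr2 rose by 0.78 ± 0.15. Fgf5, a marker of the formative epiblast, read -2.23 and -3.92 after OHT and -0.67 and -2.17 untreated (-1.65 ± 0.21), and Fgf15 changed by -1.14.

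**Figure D2:**
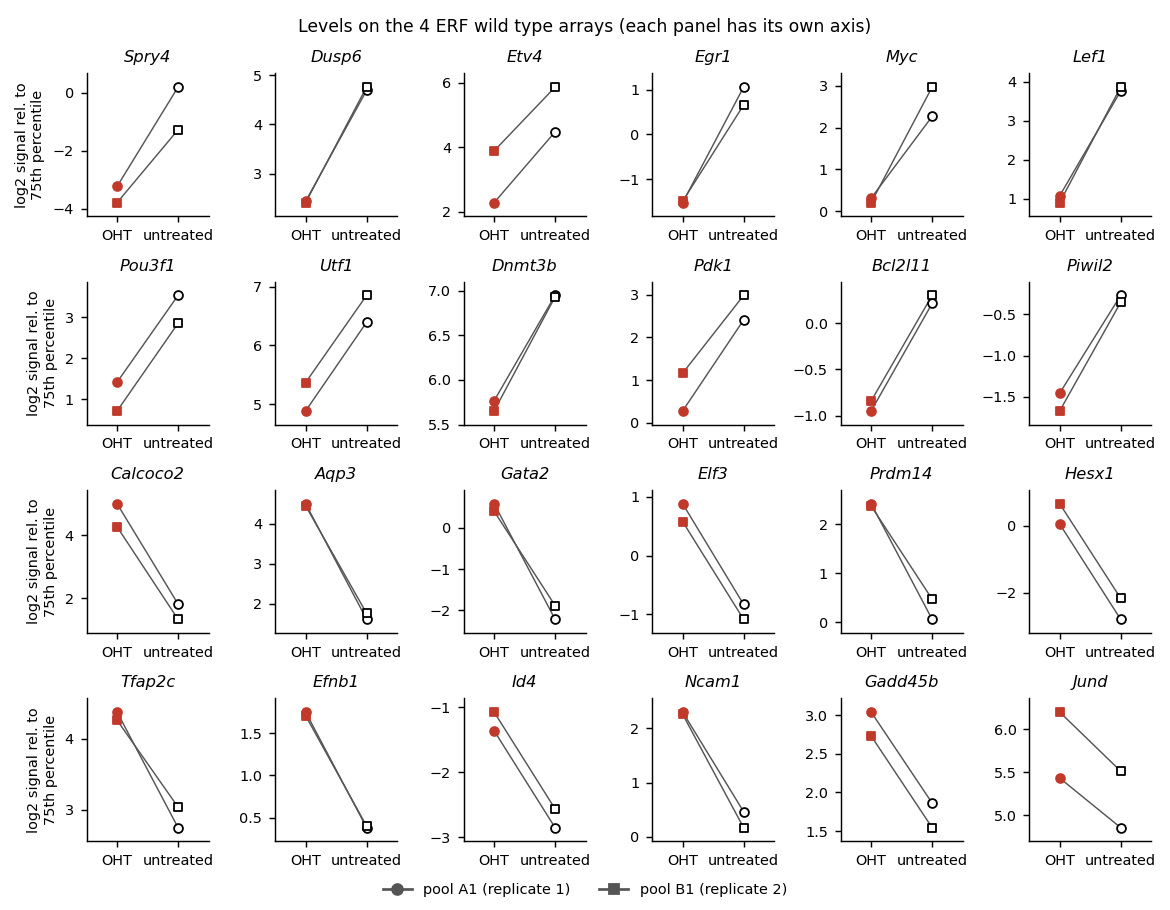
Levels of 24 genes on the 4 ERF wild type arrays, as log2 signal relative to the 75th percentile of the array, with OHT (filled red) left of untreated (open) and a line joining the arrays of a pool. In every panel both lines run the same way, and in Etv4, Pou3f1 and Jund the pools stand apart in both groups.

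Of 19 measured genes of naive pluripotency, the state of the preimplantation epiblast, 7 rose, 1 fell and 11 did not pass, with a median of 0.82. Prdm14, a repressor of FGF signalling and differentiation genes, read 2.42 and 2.38 after OHT, against 0.06 and 0.47 in untreated cells (2.13 ± 0.14, adjusted p 0.00241). Tcl1, a cofactor of the kinase AKT, read 4.61 and 5.23 after OHT and 3.71 and 4.11 untreated (1.00 ± 0.10), and Dppa3, a protector of maternal methylation marks, 3.03 and 3.29 after OHT and 2.23 and 2.13 untreated (0.98 ± 0.11). In none of these 3 genes did the groups overlap, which held for 1538 of 1825 called genes and 39.6% of all genes tested. Klf2, a factor that ERK marks for degradation, rose by 0.87 ± 0.11. Gbx2 was the member that fell, with 0.85 and 0.46 after OHT and 2.94 and 3.43 untreated (-2.53 ± 0.25). Pramel6, of a family active in the inner cell mass but outside this list, was among the 15 largest rises (2.26 ± 0.30, or 1.32 with normexp). In the LIF, JAK and STAT3 list 1 of 14 genes passed (7.14%), against 12.4% over all genes. The log2 of the summed signal of the 8 ES cell markers was 8.89 and 9.01 after OHT, against 8.59 and 8.87 in untreated cells.

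Of 17 core pluripotency genes, which naive and primed cells share, 10 fell and 0 rose (limma), with a median of -0.44. Utf1, a chromatin protein of pluripotent cells, read 4.88 and 5.37 after OHT, against 6.39 and 6.85 in untreated cells (-1.50 ± 0.06, adjusted p 6.72e-04). Tdgf1, the Nodal co-receptor gene, read 3.58 and 3.33 after OHT and 4.45 and 4.41 untreated (-0.98 ± 0.10), and Lin28b, a let-7 blocker, changed by -0.73 ± 0.08. L1td1, an RNA-binding protein gene, changed by -0.44 ± 0.05, a call lost with normexp. Pou5f1 and Sox2, which define the network, changed by -0.26 and 0.20 and did not pass.

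Of 25 genes of the formative and primed epiblast 11 fell and 1, Nodal, rose, with a median of -0.82. Pou3f1, a POU factor of that state, read 1.41 and 0.71 after OHT, against 3.54 and 2.85 in untreated cells (-2.13 ± 0.08, adjusted p 6.37e-04). Tcf15, a bHLH factor that primes cells for differentiation, read 3.12 and 2.55 after OHT and 4.73 and 4.27 untreated (-1.66 ± 0.08). For both, each pool fell by nearly the same amount. Dnmt3b, a de novo DNA methyltransferase gene, read 5.77 and 5.65 after OHT and 6.95 and 6.93 untreated (-1.23 ± 0.07), and its cofactor gene Dnmt3l 6.54 and 6.51 after OHT and 7.16 and 7.20 untreated (-0.65 ± 0.06). These were the 2 that passed (14.3%, against 12.4% over all genes) among 14 genes of DNA methylation and demethylation, whose median was -0.22. Of 19 piRNA pathway and germline genes 6 fell and 1, Dppa3, rose, with a median of -0.38. Piwil2, which binds piRNAs, read -1.46 and -1.67 after OHT and -0.27 and -0.36 untreated (-1.25 ± 0.12), and Mael, of the same pathway, changed by -0.87 ± 0.10. The meiotic gene Sycp1 changed by -0.78 ± 0.13.

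**Figure D3:**
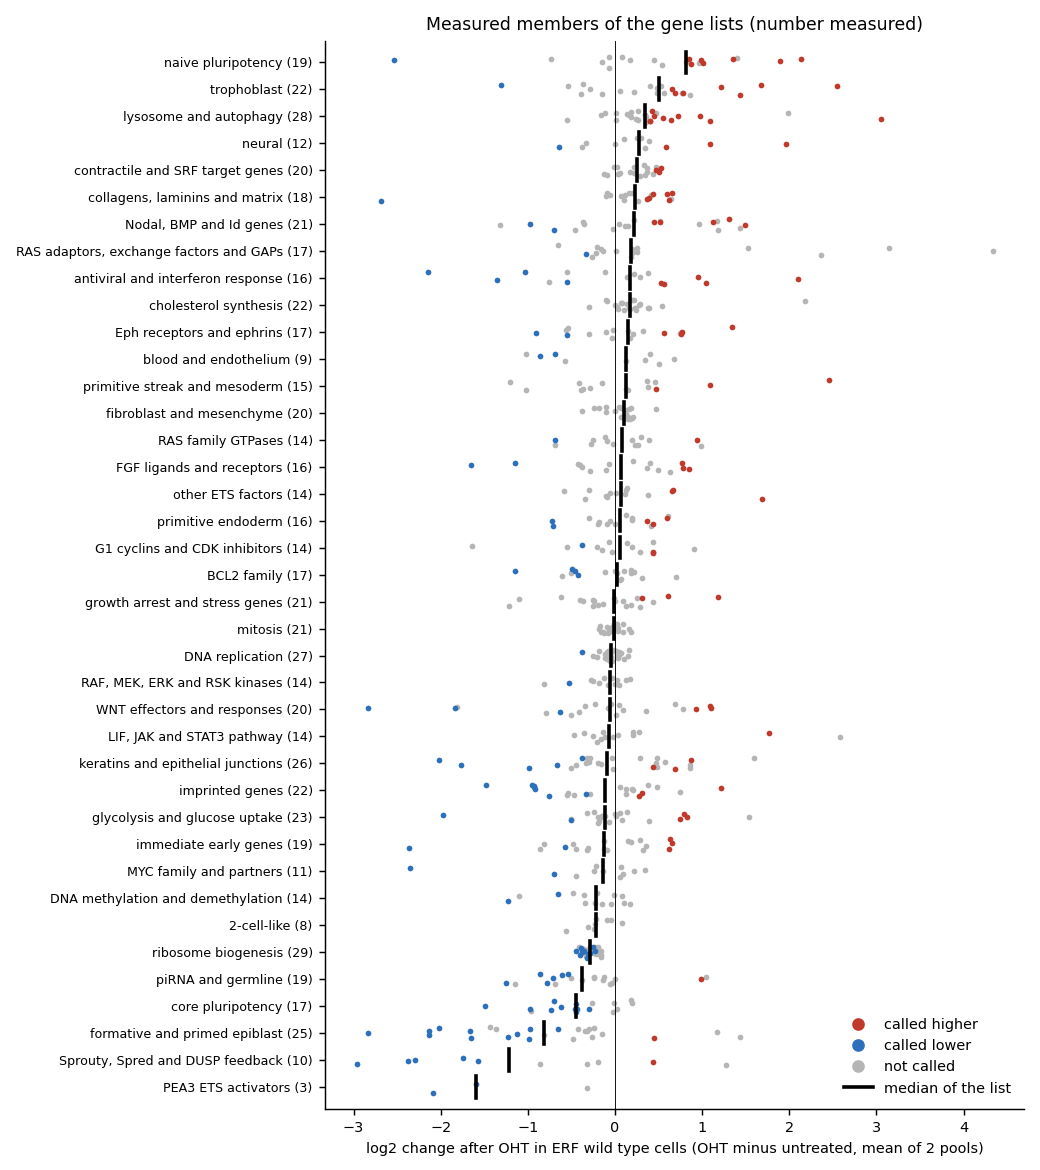
Log2 change after OHT in ERF wild type cells of each measured member of 39 gene lists, ordered by the list's median (black bar) from the highest at the top; red and blue points are members called higher and lower. Naive pluripotency has the highest median, 0.82, and the PEA3 ETS activators the lowest, -1.60; the lists are not tested.

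Several trophoblast genes rose. Of 22 measured, 7 rose and 1, Cdx2, fell, with a median of 0.50. Gata2, a GATA factor of giant cells, read 0.59 and 0.40 after OHT, against -2.22 and -1.89 in untreated cells (2.55 ± 0.19, adjusted p 0.00267), and Tfap2c, an AP-2 factor, read 4.38 and 4.26 after OHT and 2.75 and 3.04 untreated (1.43 ± 0.11). Sox21, a SOX factor, read -1.15 and -0.47 after OHT and -2.55 and -2.44 untreated (1.68 ± 0.23), but 0.86 with normexp, and another probe of the gene changed by 0.17. Groups of these 3 genes did not overlap, as in 1538 of 1825 called genes and 39.6% of all genes tested. The log2 of the summed signal of the 6 trophoblast markers was 0.92 and -0.03 after OHT, against 0.76 and 0.19 untreated, with Elf5 and Tpbpa not above background on any array. The part of other cells in these rises was not tested.

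Other lineages differed in their calls. In primitive endoderm Lama1 (0.59 ± 0.07), Col4a1 (0.43 ± 0.08) and Sparc (0.36), which encode basement membrane proteins, rose, while the endocytic receptor genes Cubn (-0.72 ± 0.12) and Amn (-0.71 ± 0.13) fell, and Gata4 and Gata6, with changes of 0.20 and -0.30, did not pass. In primitive streak and mesoderm 3 of 15 rose (20%), against 12.4% called over all genes. Gsc, an organizer homeobox gene, read -1.82 and -2.06 after OHT and -4.04 and -4.76 untreated (2.46 ± 0.43), where it was above background on 1 of 2 arrays, and with normexp its change was 0.74. Wnt3 rose by 1.09 ± 0.19 and Snai1, a repressor of epithelial genes, by 0.47 ± 0.10, and both calls were lost with normexp. Among 12 neural genes Ncam1, a cell adhesion gene, read 2.30 and 2.26 after OHT and 0.47 and 0.17 untreated (1.96 ± 0.18). The neuronal tubulin gene Tubb3 read 4.10 and 4.32 after OHT and 3.08 and 3.16 untreated (1.09 ± 0.10), and Neurod1 fell by 0.64 on the log2 scale. The medians of the streak and neural lists, 0.12 and 0.27, turned to -0.22 and -0.06 with normexp, where 1 streak gene rose and 2 fell. None of 20 fibroblast genes was called by limma, and the lowest adjusted p was that of Pdgfrb (0.47 ± 0.19, 0.162). Of 9 blood and endothelium genes Lyl1 (-0.86 ± 0.20) and Runx1 (-0.69 ± 0.15) fell, a share of 22.2% against 12.4% over all genes. Without the filter on dim probes the calls for Snai1, Neurod1, Lyl1 and Runx1 were lost.

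Some signalling genes outside the RAS pathway passed too. Bmp7 read 0.50 and 1.38 after OHT, against -0.62 and 0.25 in untreated cells (1.13 ± 0.10, adjusted p 0.00366), and Id4, an inhibitor of bHLH factors, -1.36 and -1.08 after OHT and -2.85 and -2.57 untreated (1.49 ± 0.15, or 0.76 with normexp). Skil, a SMAD co-repressor gene, fell, with 3.0 and 2.72 after OHT and 3.71 and 3.41 untreated (-0.70 ± 0.07). In all, 5 of 21 Nodal, BMP and Id genes rose and 2 fell. Among 20 WNT genes 3 rose and 3 fell (30% called, against 12.4% over all genes). Next to the fall of Lef1, Wnt4 rose by 0.93 ± 0.11 and Wnt8a fell by 1.83 on the log2 scale, or by 1.07 with normexp. After OHT Wnt8a was above background on 1 of 2 arrays. The secreted WNT antagonist gene Sfrp1, outside these 20, read 1.28 and 1.03 after OHT and -0.86 and -1.40 untreated (2.28 ± 0.23). Among 17 Eph receptors and ephrins, which signal between touching cells, 4 rose and 2 fell (35.3% called). Efnb1 read 1.75 and 1.71 after OHT and 0.38 and 0.40 untreated (1.34 ± 0.11), Efna4 rose by 0.77 ± 0.13 and Ephb4 by 0.56 ± 0.10, and Epha2 fell by 0.55. The Ephb4 call was lost with the small dark areas left out.

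Genes of the cell surface and matrix were mixed. Col6a5, a collagen VI chain gene, read -2.54 and -2.09 after OHT, against 0.11 and 0.64 in untreated cells (-2.69 ± 0.14, adjusted p 0.00143), whereas 6 of 18 matrix genes rose, among them Nid1, a basement membrane linker gene (0.65 ± 0.12). Of 26 keratin and junction genes 3 rose and 5 fell, or 3 with normexp and 3 with quantile scaling. Esrp1, an epithelial splicing regulator, read 0.95 and 1.21 after OHT and 2.06 and 2.07 untreated (-0.99 ± 0.10), while Cldn4, a tight junction gene, rose by 0.88 ± 0.13 and Krt18 by 0.69 ± 0.12. Krt18 read 6.07 and 4.49 after OHT and 5.60 and 3.59 untreated, so its pools differed more than its groups. Among 20 contractile genes Anxa2 (0.53 ± 0.07), Cnn2 (0.50 ± 0.07) and Cald1 (0.47 ± 0.10) rose, 0 fell (limma), and the median was 0.25. The share called was 15%, against 12.4% over all genes. With normexp 10 of these 20 rose, with a median of 0.36, and with quantile scaling 7.

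Calls among cell cycle genes differed by list. None of 21 mitosis genes passed limma, the lowest adjusted p being that of Mad2l1 (-0.17 ± 0.06, 0.138), and of 27 DNA replication genes only Rfc5, a clamp loader subunit, fell (-0.38 ± 0.06). The shares called, 0 and 3.70%, stand beside 12.4% over all genes. The medians were -0.02 and -0.05, and both turned to above 0 with normexp, at 0.06 and 0.03, and with quantile scaling. The Rfc5 call was lost with normexp. Of 14 G1 cyclin and CDK inhibitor genes 3 passed (21.4%), against 12.4% over all genes. The inhibitor genes Cdkn1b and Cdkn2d, which restrain G1 kinases, rose by 0.44 ± 0.08 each, and Ccne1, the cyclin of S phase entry, fell by 0.38 in both pools. Among 17 BCL2 family genes, which control cell death, 4 fell and 0 rose (limma). Bcl2l11, which encodes the death activator BIM that ERK normally holds down, read -0.95 and -0.84 after OHT, against 0.21 and 0.30 in untreated cells (-1.15 ± 0.11, adjusted p 0.00468). The survival gene Mcl1 read 5.59 and 5.41 after OHT and 6.17 and 5.81 untreated (-0.49 ± 0.07), Bok changed by -0.47 ± 0.08 and Bid by -0.43 ± 0.09, a call lost with normexp. Of 21 p53 target and stress genes 3 rose (14.3%), against 12.4% called over all genes. Gadd45b led, with 3.04 and 2.73 after OHT and 1.86 and 1.54 untreated (1.18 ± 0.08), followed by Gadd45g (0.61 ± 0.12).

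Of 28 measured lysosome and autophagy genes 10 rose (35.7%), 0 fell (limma) and 18 did not pass, with a median of 0.35. Calcoco2, an autophagy receptor, had the largest called rise, with 5.00 and 4.27 after OHT against 1.83 and 1.34 in untreated cells (3.05 ± 0.11, adjusted p 6.37e-04). Tfeb, the transcription factor that drives lysosome genes, read -0.13 and -0.61 after OHT and -1.39 and -1.53 untreated (1.09 ± 0.15). The groups of both genes lay apart on all 4 arrays, as in 1538 of 1825 called genes and 39.6% of all genes tested. Gabarap, which builds autophagosomes, rose by 0.55 ± 0.07 and Npc2, a cholesterol carrier of lysosomes, by 0.65 ± 0.07, a call lost with dark areas kept. The dark spot of Npc2 lay on OHT replicate 1 of the labelled knockout, and with it kept the wild type change stayed at 0.65. Of 22 cholesterol synthesis genes 18 had positive changes but 0 passed (limma), with a median of 0.17. In glucose metabolism 3 of 23 genes rose and 2 fell (21.7% called, against 12.4% over all genes). Pdk1, a kinase that keeps pyruvate out of mitochondria, read 0.28 and 1.16 after OHT and 2.41 and 2.99 untreated (-1.98 ± 0.10). The transporter gene Slc2a3 rose by 0.80 ± 0.07, the lactate dehydrogenase gene Ldhb by 0.83 ± 0.06 and the hexokinase gene Hk1 by 0.74 ± 0.08.

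Antiviral genes did not move as a block, with 5 of 16 higher and 4 lower. Xaf1, an interferon-induced death gene, read 0.23 and 0.58 after OHT, against -2.0 and -1.40 in untreated cells (2.11 ± 0.16, adjusted p 0.00289), and Oas1a, an RNA sensor gene, rose by 1.04 ± 0.11. Oasl2, of the same family, went the other way, with -3.50 and -3.02 after OHT and -1.30 and -0.91 untreated (-2.15 ± 0.18, or -1.39 with normexp), and Ddx58, which encodes the sensor RIG-I, fell by 1.03, a call lost with the small dark areas left out. Of 22 imprinted genes, expressed from 1 parental copy, 7 fell and 3 rose. Magel2 read -0.52 and -1.25 after OHT and 1.00 and 0.20 untreated (-1.49 ± 0.12), and Snrpn, near it on chromosome 7, 2.77 and 2.85 after OHT and 3.82 and 3.71 untreated (-0.96 ± 0.08). Meg3, a noncoding RNA of the Dlk1 domain on chromosome 12, read 5.39 and 3.95 after OHT and 6.19 and 4.66 untreated (-0.76 ± 0.07), and Mirg, from the same domain, changed by -0.92 ± 0.09. The pools held Meg3 and Mirg at different levels, and OHT lowered both RNAs in each pool. None of 8 genes of the 2-cell-like state was called by limma, against 12.4% over all genes. Among them Gm4340 showed a gap between pools, with 5.31 and 0.90 after OHT and 5.54 and 1.28 untreated (-0.31 ± 0.07, adjusted p 0.0511).

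The remaining largest rises came from genes of varied roles. Aqp3, a water and glycerol channel, read 4.51 and 4.46 after OHT, against 1.60 and 1.75 in untreated cells (2.80 ± 0.10). Hhip, a decoy receptor for hedgehog ligands, read 1.02 and 0.91 after OHT and -1.65 and -2.50 untreated (3.04 ± 0.21). Hesx1, a homeobox repressor of the anterior neural plate, read 0.05 and 0.65 after OHT and -2.79 and -2.16 untreated (2.83 ± 0.14). In all 3 both OHT values lay over 2 log2 units above both untreated values. The pepsinogen gene Pga5 rose by 2.67 ± 0.20, and Vax2os, a noncoding RNA opposite Vax2, by 2.85 ± 0.23, a call lost with normexp. Eif4e1b, an oocyte form of a cap-binding factor, rose by 2.94 ± 0.48 and the photoreceptor cadherin gene Cdhr1 by 2.96 ± 0.50, against 1.12 and 1.58 with normexp. In untreated cells Eif4e1b was above background on 1 of 2 arrays. Mobp, a myelin gene, rose by 2.25 ± 0.34, or by 1.02 with normexp, where it was not called.

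Among the largest falls Grm6, a glutamate receptor gene of the retina, read -4.57 and -6.63 after OHT, against -1.44 and -2.13 in untreated cells (-3.82 ± 0.49, adjusted p 0.0102). After OHT it was above background on 1 of 2 arrays, and with normexp its change was -1.69. Sema6a, a semaphorin, read -2.39 and -3.56 after OHT and -0.06 and -0.73 untreated (-2.58 ± 0.30), and Gsx1, a homeobox gene, -3.46 and -3.44 after OHT and -1.65 and -0.38 untreated (-2.44 ± 0.41). A further 5 genes were not well above background on either array after OHT and were tested through the untreated group alone, so their folds are lower bounds, set against the lowest signal among probes well above background on those arrays or the gene's own signal there, whichever was higher. Ccdc3, which encodes a secreted coiled-coil protein, was at least 4.43-fold lower after OHT, the transporter gene Slc35d3 at least 4.00-fold (adjusted p 0.0245 and 0.0317), and the oocyte factor gene Figla at least 3.75-fold (adjusted p 0.0302). The noncoding Platr8 and the gene 9330159F19Rik were at least 1.93-fold and 3.08-fold lower, with an adjusted p of 0.0477 each. With normexp the log2 changes of these 5 lay between -0.98 and -0.78, each smaller than its bound, so the bounds hold for the scanner's processed signal alone.

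Promoter sequence was set beside these changes. The windows, 250 bases before to 50 after the start of a gene, are RefSeq's on GRCm38.p6, and 1 window a gene was used. The ETS core CCGGAAG, read on both strands, stood in 147 (19%) of 768 promoters of genes that fell and in 48 (7.20%) of 667 promoters of genes that rose, against 16.3% of all 11677 tested genes with a window and 9.12% of 27025 genes in the table. Median GC content was 60.3% in the first set, 62% in the second and 60.3% over all tested. For the AP-1 site TGANTCA the shares were 4.30, 5.40 and 5.16% in the same order, and for the E-box CACGTG, bound by MYC, 12, 9.60 and 9.96%. A match is a description of letters and not a binding site. Of the named genes with a window, the ETS core stood in 6 of 49 that fell and 2 of 49 that rose. The 4 windows printed here are those of 2 genes in each direction, with the smallest p among the named genes considered that hold the core. Some named genes were not considered, because of their place in the genome, whatever their p. The core is in capitals as it reads on the gene's strand. Bcl2l11 lies at chr2:128125788-128126087 on the plus strand with the core at -105 from the start, Mcl1 at chr3:95658471-95658770 on the plus strand at -63, Npc2 at chr12:84773063-84773362 on the minus strand at -135 and Sox21 at chr14:118236981-118237280 on the minus strand at -242.
Bcl2l11: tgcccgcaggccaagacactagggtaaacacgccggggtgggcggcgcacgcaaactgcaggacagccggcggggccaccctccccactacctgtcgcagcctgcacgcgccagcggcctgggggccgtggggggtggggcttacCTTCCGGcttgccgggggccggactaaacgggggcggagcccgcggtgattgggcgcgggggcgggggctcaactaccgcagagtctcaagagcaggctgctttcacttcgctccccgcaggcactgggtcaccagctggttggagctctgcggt
Mcl1: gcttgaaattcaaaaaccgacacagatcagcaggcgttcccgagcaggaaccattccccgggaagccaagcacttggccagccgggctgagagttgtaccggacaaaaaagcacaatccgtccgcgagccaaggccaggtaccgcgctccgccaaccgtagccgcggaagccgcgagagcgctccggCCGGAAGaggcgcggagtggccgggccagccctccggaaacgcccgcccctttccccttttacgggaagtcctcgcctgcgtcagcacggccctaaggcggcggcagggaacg
Npc2: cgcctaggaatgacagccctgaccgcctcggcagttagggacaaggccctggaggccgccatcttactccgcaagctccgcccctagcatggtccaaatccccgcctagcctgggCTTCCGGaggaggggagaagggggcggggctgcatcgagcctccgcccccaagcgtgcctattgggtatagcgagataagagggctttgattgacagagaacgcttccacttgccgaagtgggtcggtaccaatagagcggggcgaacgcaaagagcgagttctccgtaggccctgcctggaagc
Sox21: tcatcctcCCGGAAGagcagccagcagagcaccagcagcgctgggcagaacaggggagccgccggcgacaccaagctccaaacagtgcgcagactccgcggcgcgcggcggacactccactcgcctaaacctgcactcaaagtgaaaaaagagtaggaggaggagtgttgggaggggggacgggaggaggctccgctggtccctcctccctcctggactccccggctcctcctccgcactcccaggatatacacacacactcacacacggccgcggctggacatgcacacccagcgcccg

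The response was set beside that of the cells labelled ERF knockout, which share no array with it. There 371 genes (2.53%) rose and 350 (2.39%) fell, and 573 genes were called in both with the same sign, which is 31.4% of the wild type calls and 79.5% of those in the labelled knockout. Since both sets of calls share 1 spread estimate for each gene, they are not independent. The difference of the effects was called for 0 genes by limma (959 at an unadjusted p under 0.05, smallest adjusted p 0.313). Without 1 array this count ran from 0 to 427, highest without OHT replicate 2 of the labelled knockout. The 1825 wild type calls had the same sign in the labelled knockout in 1768 cases, with a median size of 0.62 in the wild type, against 0.41 in cells labelled ERF knockout. They were chosen by their wild type values, which favours the larger change there. All 30 of the largest rises and falls kept their sign, all 30 were closer to 0 in the labelled knockout, and 17 were called there. Gata2 changed by 2.55 in the wild type and by 0.67 in cells labelled ERF knockout, Elf3 by 1.69 and 0.34, Piwil2 by -1.25 and 0.16, and Meg3 by -0.76 and 0.06 (adjusted p of the difference 0.313 each). Dusp6 changed by -2.30 and -2.02, Etv1 by -1.60 and -1.59, and Klf2 by 0.87 and 0.88.

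**Figure D4:**
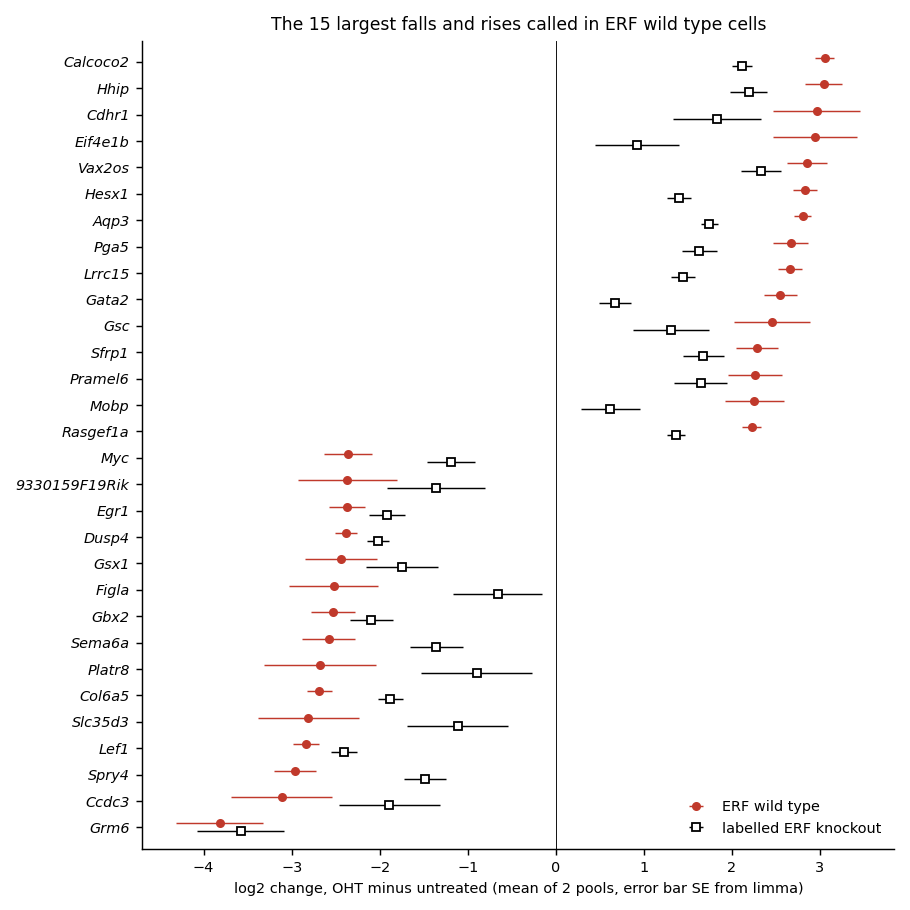
Log2 change after OHT of the 15 largest rises and the 15 largest falls called in ERF wild type cells, in ERF wild type (red, upper point) and in the labelled ERF knockout (open, lower point). Points are means of 2 pools, and bars are the SE from limma, whose spread is shared by both genotypes. All 30 have the same sign in both, and none of the differences was called; for the 5 genes not above background after OHT the points are measured values and not bounds.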

How the data were processed

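Per the labels' protocols, total RNA of 8 mouse ES cell samples was Cy3-labelled and put on 1 array for each sample. Per the file headers, the deposited spot intensity values come from Agilent Feature Extraction 11.5.1.1: processed signals that are background-subtracted and not scaled between arrays, with the median intensity of each spot and its background, and other columns with 0 or 1 flags. What the authors did beyond that is not given in the sources used. A deposited table of log2 values was not used, because its probe names do not match the scanner files.

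From the deposited intensity, the log2 signal minus the array's 75th percentile was computed. Control spots and spots with outlier flags were left out, as were areas whose running median over 21 by 21 spots lay under -0.5. Accessions were named through RefSeq (GRCm38.p6, names only): 28026 of 55681 probes matched 21154 genes and 27655 matched none. Tested were probes that cleared the background flag on both arrays of 1 wild type group or of both, with 1 probe a gene: a probe with values on all 4 wild type arrays came first, then the highest mean.

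Tests were made with limma 3.58.1 in R 4.3.3 (lmFit, eBayes with trend and robust, two-sided) with 4 pools as blocks on all 8 arrays, which leaves 2 residual degrees of freedom beside a median prior of 3.92, with Benjamini-Hochberg adjustment over all genes and a threshold of 0.05. Called means past that threshold. Counts of called list members are to be read beside the 12.4% called over all genes, 5.85% higher and 6.59% lower. Pairing comes from the source names. Deviations from group means correlated at 0.641 within the wild type pools and 0.472 within the labelled knockout pools, against 0.249 to 0.520 across genotypes. These values do not check the pairing: in the wild type pool and slide go together, and 0.472 lies within the range across genotypes. The labels call the replicates biological. The p-values and SEs do not measure the spread between the 2 wild type pools alone. Their spread is estimated for each gene over the 4 pools of both genotypes and drawn towards the prior variance. Slide 2 held both arrays of pool B1 and slide 1 the other 6, so each pool's change lies within 1 slide. The number of arrays limits the precision. The fit was tested on simulated data, in which the spread did not follow the signal level and no dark areas were placed. It is therefore no check of the prior variance that follows the signal level, on which the calls depend. Summaries used Python 3.11.15 with pandas 2.3.3, numpy 2.4.6 and scipy 1.17.1, and figures matplotlib 3.10.9.

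Members, lists and settings were chosen with earlier results of these data known. Named are the RAS genes and Erf, the 15 largest rises and falls that were called and moved the same way in both pools, and up to 4 called members of each list with the smallest p, or the member with the smallest p where none was called. Members named for their role or because a count is small were chosen after their values were seen. A few genes under this rule are left out of the text.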

Additional observations from a re-analysis of the deposited data

How the results depend on the processing

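The count of 1825 genes called in the wild type stayed within 1.5 times under normexp (1954), quantile scaling (1801), no filter on dim probes (1438), a filter on all arrays (2208), dark areas kept (1563) or masked at -0.3 (1907) or -1 (1761), array weights (2733), the highest-mean probe (1824) and all probes (2081 of 30522). Normexp ran on median signals, because mean signals are not among the columns used here. The count was 0 with a constant prior variance that was not robust either, and 5 with no replicate block. It was 0 with group means, that same constant prior and dark areas kept (914 at an unadjusted p under 0.05), and 0 with slide as a block instead of pool (1052). On the wild type arrays alone with the replicate block it was 2821. With small dark areas left out too, an alternative chosen after seeing the data, it was 2739, and 1810 of the genes were shared. With 1 array left out it ran from 27 to 2841: 28 and 259 without replicates 1 and 2 of the untreated group, 27 and 157 without those of the OHT group, and 2805 to 2841 without an array of the labelled knockout. Leaving out an array drops its pair, so 1 pool then carries the effect. The difference of the effects had 0 calls under every setting with all arrays and 0 to 427 with 1 array left out. The cause of these shifts was not tested. Of 127 called named genes, no change reversed in 3036 comparisons with a setting: 2074 kept their call and 962 lost it. Many of these comparisons could not reverse a sign. Without a wild type array the change is that of 1 pool, and both pools of every called gene moved the same way. A constant prior variance or the loss of a labelled knockout array leaves the wild type change as it was. Over all probes, where more p-values are adjusted together, the calls for Cdhr1, Platr8, Figla, 9330159F19Rik, Elf1, Shc1, Snai1, Neurod1 and Lyl1 were among those lost. Of the 127 named genes 39 had several tested probes, and 0 had one that moved the other way, but another probe changed by 0.17 for Sox21, 0.32 for Fgfr1, 0.27 for Wnt4, 1.25 for Ncam1, -0.20 for Runx1 and -0.75 for Bcl2l11, against 1.68, 0.77, 0.93, 1.96, -0.69 and -1.15 for the probe used. With dark areas kept the calls for Platr8, 9330159F19Rik, Neurod1 and Lyl1 were among those lost, and with quantile scaling those for Platr8, Neurod1 and Lyl1. Of 936 list medians under a setting 841 stayed within the spread between pools and 95 moved further. Many of these medians could hardly move, so the count says little about stability. A constant prior variance or the loss of a labelled knockout array leaves the wild type changes as they were. Without a wild type array the median is that of 1 pool, and the pools' medians set the spread. Normexp turned the sign of 11 of 39 list medians and quantile scaling that of 2. Dim signals limit the folds: normexp shrank those of genes near background most.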

Other observations

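Of 336 long noncoding RNA genes tested, 7 (2.08%) rose and 22 (6.55%) fell after OHT, against 5.85% and 6.59% over all genes. By chromosome, the share of tested genes that was called ran from 10.6% of 1220 on chromosome 7 to 14.8% of 675 on chromosome 3. On the X chromosome 28 of 543 genes rose and 51 fell, with a median change of -0.07, against -0.03 over all genes tested. These counts carry no test.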
